A study of Mus musculus with 12 samples.

Results

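The BCL2 family sets whether a cell lives or dies through its mitochondria. Its 10 members described here were the rows with the symbols Bcl2, Bcl2l1, Mcl1, Bcl2a1b, Bcl2l11, Bmf, Bid, Bad, Bik and Bak1 among the 55359 genes in the count table of untreated cells, and all 10 were found. Counts of poly(A) RNA were compared in mouse splenic B cells purified by removing CD43-bearing cells with beads. The double knockout (DKO) cells carried Cre-loxP deletions of both Hnrnpa1 and Hnrnpa2b1, which encode the RNA-binding proteins hnRNP A1 and hnRNP A2B1, and no source used here gives the promoter that drove Cre, the strain or the age of the mice. The groups were 2 DKO and 2 wild-type (WT) libraries of cells stimulated in culture (anti-IgM at 10 µg/mL plus anti-CD40 at 1 µg/mL, 48 h), 3 DKO and 3 WT libraries of untreated cells taken without culture, and 2 additional WT libraries of untreated cells that carry titles of another kind and were kept apart. One stimulated WT column carries a number that the labels do not give and is called the unnumbered library. The labels do not say whether each library is a different mouse, so the p-values rest on the spread between these libraries, which may be technical. By Xist counts the second WT and the first DKO library of untreated cells read as female, and the rest of their groups do not. Neither of these groups thus comes from a single mouse.

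Pro-survival members (Bcl2, Bcl2l1 which encodes BCL-XL, Mcl1, and the A1 gene Bcl2a1b) hold the pore-forming effectors BAK and BAX in check. BH3-only members (Bcl2l11 which encodes BIM, Bmf, Bid, Bad and Bik) are sensors of stress or lost survival signals: they bind the pro-survival proteins through a short BH3 helix, or act on the effectors directly, and so open the way to release of cytochrome c and to caspase activation. In B cells BIM is known for removing self-reactive cells, BCL-XL and A1 for being induced by antigen receptor and CD40 signals, and MCL1 for being needed throughout the lineage.

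Between 15090953 and 21731893 reads per library were assigned to genes. Both targeted transcripts were lower in DKO cells by edgeR, with p-values adjusted over all genes tested. The log2 fold changes of Hnrnpa1 were -2.72 ± 0.20 (SE) in stimulated and -2.46 ± 0.30 in untreated cells (edgeR adjusted p = 0.000321 and 0.00217), and those of Hnrnpa2b1 were -2.19 ± 0.20 and -2.03 ± 0.20 (edgeR adjusted p = 0.00115 and 0.00142). The labelled cell type was checked on 6 B cell markers, of which 1 was lower in stimulated and 2 were lower in untreated DKO cells. Ms4a1, which encodes CD20, was at 1201 to 1249 CPM of the plain library total in stimulated DKO, 1628 to 1739 in stimulated WT, 555 to 651 in untreated DKO and 737 to 780 in untreated WT cells. Cd79a, a signalling chain of the antigen receptor, was at 669 to 963, 933 to 1016, 566 to 676 and 612 to 804 CPM in the same order of groups. Cd22, an inhibitory receptor, was at 248 to 304, 552 to 629, 129 to 178 and 225 to 321 CPM, while Pax5, the B cell identity factor, was at 637 to 804, 826 to 830, 617 to 825 and 575 to 650 CPM and thus had its higher mean in DKO among untreated cells. Marginal zone B cell markers summed to 158 to 165 CPM in stimulated DKO, 251 to 303 in stimulated WT, 248 to 284 in untreated DKO and 363 to 453 in untreated WT cells, and 2 of 6 were lower in stimulated and 3 of 6 in untreated DKO cells. Follicular markers summed to 965 to 1473, 1121 to 1440, 472 to 737 and 385 to 467 CPM in the same order of groups, with 2 of 4 lower in stimulated DKO cells and 1 of 4 higher and 2 of 4 lower in untreated DKO cells. T cell markers summed to 7.03 to 7.96, 15.1 to 19.7, 1.98 to 2.91 and 3.00 to 3.91 CPM. Cd5, which B cells can also carry, held 71 to 114 of these counts per stimulated DKO library and 221 to 287 per stimulated WT library, while Cd8a had at most 5 counts in any of them and Cd3e at most 14. Markers of monocytes, macrophages and granulocytes summed to 55.1 to 56.2, 66.1 to 77.4, 37.8 to 69.5 and 66.3 to 75.3 CPM. NK cell markers reached at most 5.21 CPM and erythroid markers at most 29.1 CPM in these groups, and plasma cell genes summed to 517 to 579, 484 to 533, 662 to 742 and 661 to 786 CPM. Irf4, which activated B cells also carry, made most of the plasma cell sum, and 1 of 5 plasma cell genes was lower in stimulated and 2 of 5 were lower in untreated DKO cells. The part of these differences in the values below was not tested, and in bulk RNA fewer cells of a type and less RNA per cell cannot be told apart.

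The BH3 core is the stretch by which family members recognise each other. It was searched for in the principal coding sequence of each member as a leucine codon, 3 codons of any kind, a glycine, alanine or serine codon, an aspartate codon, a codon of any kind and a phenylalanine, methionine, isoleucine or valine codon. Of the 10 members, 9 held exactly 1 such stretch and Bcl2a1b held none, while 1760 of 21877 mouse coding genes (8.04%) held at least 1. The pattern was written from the known core of the family, so a match in its members is a description. The stretches of 4 members whose transcripts differed between DKO and WT cells are given 5′ to 3′, with the leucine codon and the codon pair of the small residue and aspartate in capitals. They are pro-survival Bcl2l1 (codon 90 of 233; GRCm38 chr2:152829700-152829723, minus strand), effector Bak1 (codon 76 of 209; chr17:27022534-27022557, minus strand), and BH3-only Bcl2l11 (codon 150 of 196; chr2:128147150-128147173, plus strand) and Bmf (codon 224 of 271; chr2:118545103-118545126, minus strand).
Bcl2l1: CTGagagaggcaGGCGATgagttt
Bak1: CTTgctctcatcGGAGATgatatt
Bcl2l11: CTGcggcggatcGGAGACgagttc
Bmf: CTTcagtgtattGCAGACcagttc
Whole genes were counted here, so the values below do not tell splice forms with and without such a stretch apart.

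Levels within the family were compared per kilobase of exon (RPKM, from TMM-scaled counts and the deposited exon lengths). Bcl2a1b and Mcl1 were the most abundant members in all 4 groups. Bcl2a1b averaged 349 ± 83.2 RPKM (SD, n = 2) in stimulated DKO and 225 ± 2.30 (n = 2) in stimulated WT cells, and 372 ± 37.7 (n = 3) in untreated DKO and 284 ± 17.2 (n = 3) in untreated WT cells. Mcl1 averaged 206 ± 1.36, 237 ± 21.0, 153 ± 21.2 and 163 ± 19.3 RPKM in the same order. The order of this pair was thus reversed in stimulated WT cells, where their values overlapped. Bcl2l1 came next in both DKO groups (70.8 ± 17.6 RPKM stimulated, 58.8 ± 3.80 untreated), above Bid in every library of those groups, and below Bid in both WT groups, at 38.0 ± 3.78 RPKM stimulated and 34.2 ± 1.42 untreated. In untreated WT cells Bak1 (35.6 ± 3.71 RPKM) and Bcl2l1 overlapped. Bcl2l11, Bcl2, Bad, Bmf and Bik followed, with Bcl2 and Bad overlapping in untreated DKO cells and Bad and Bmf in stimulated DKO cells. Bmf stood above Bad only in the stimulated WT group, at 4.78 ± 0.27 against 2.94 ± 0.91 RPKM.

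**Figure D1:**
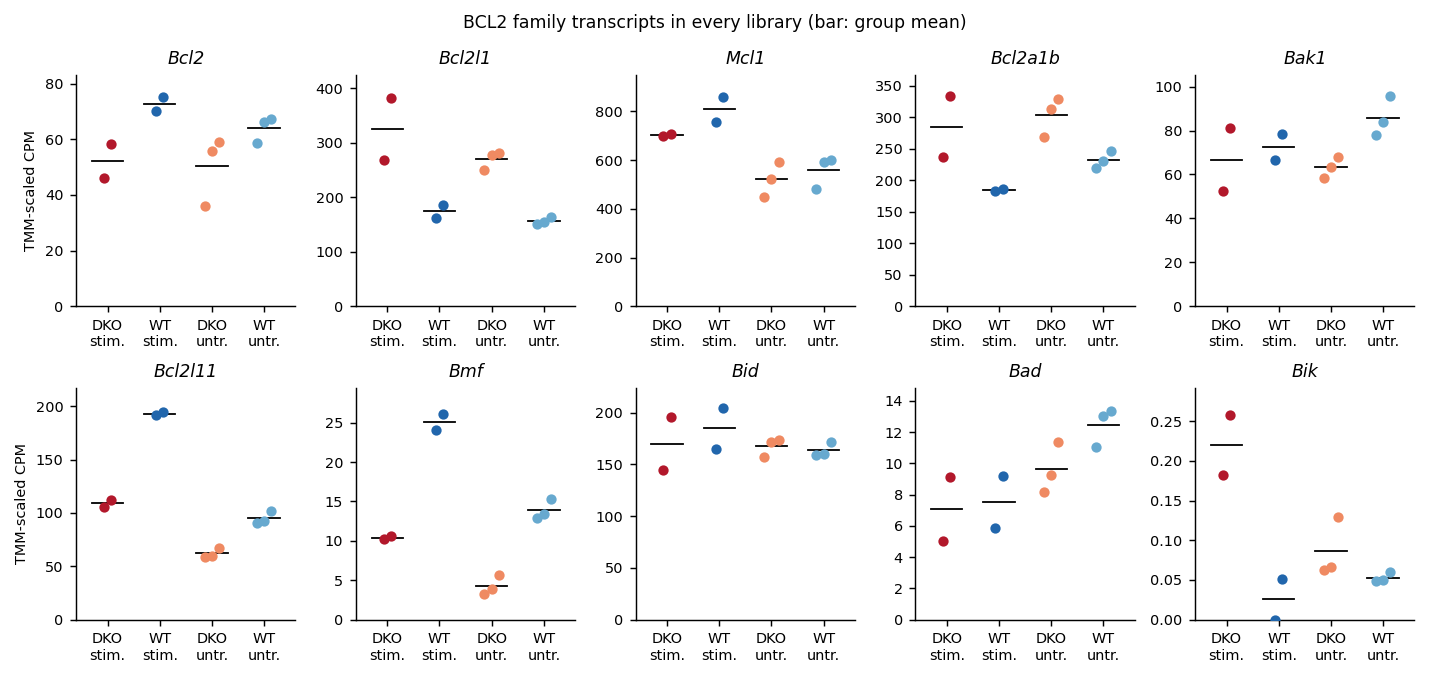
TMM-scaled CPM (vertical axis, from 0) of each member in every library of stimulated (stim.) and untreated (untr.) DKO and WT cells; each point is a library and each bar the mean of its group. Bmf and Bcl2l11 points of both DKO groups lie below those of their WT group, and Bcl2l1 points above.

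The first question was how each member differed between DKO and WT cells. In stimulated cells 9 of the 10 members were tested and Bik had too few counts; 1 was higher in DKO cells (Bcl2l1), against 5.09% of 14430 genes, 2 were lower (Bcl2l11 and Bmf), against 6.17%, and 6 did not pass. Counted together these 3 of 9 compare with 11.3% of all genes. In untreated cells 2 of 9 were higher (Bcl2l1 and Bcl2a1b), against 8.81% of 13561 genes, 3 were lower (Bcl2l11, Bmf and Bak1), against 10.6%, and 4 did not pass, so that 5 of 9 were called, against 19.5% of all genes. DKO and WT libraries did not overlap for 6 of 9 members in stimulated cells and for 5 of 9 in untreated cells, beside 61.5% and 39.2% of all genes. The median log2 fold change of the 9 members was -0.17 in stimulated and -0.36 in untreated cells, against -0.03 and -0.01 over all genes tested. Tests were edgeR quasi-likelihood tests on each condition's libraries with adjustment over all genes, a threshold of 0.05, and log2 fold changes of DKO over WT ± SE.

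**Figure D2:**
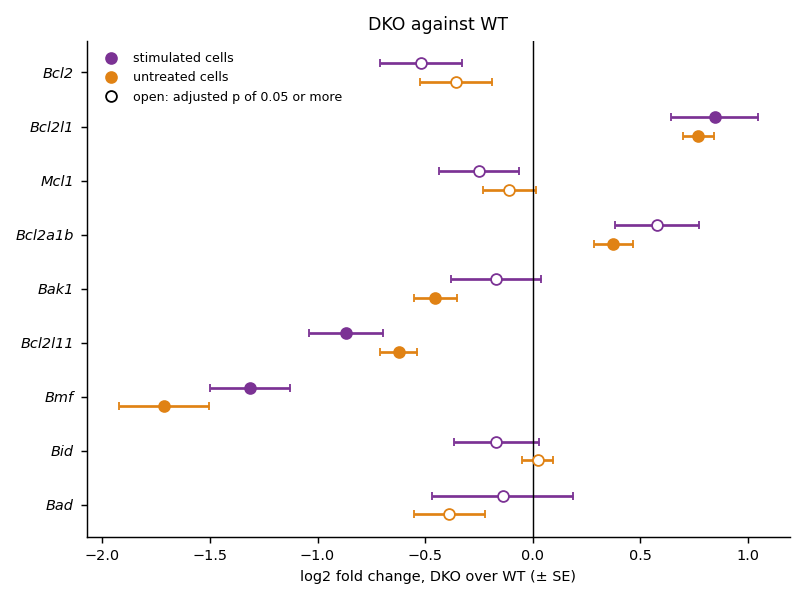
Log2 fold change, DKO over WT, of the 9 tested members (horizontal axis, bars are SE) in stimulated and untreated cells; filled points have an edgeR adjusted p under 0.05. Bcl2l1 lies right of 0 and Bcl2l11 and Bmf left of it with filled points in both conditions, while Bcl2a1b and Bak1 are filled in untreated cells.

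Among the pro-survival members, Bcl2l1 (ENSMUSG00000007659; GRCm39 chromosome 2, 152622588 to 152673648, minus strand) was higher in DKO cells in both conditions. It had 382 and 268 TMM-scaled CPM in stimulated DKO libraries, against 187 in the first and 162 in the unnumbered stimulated WT library. In untreated cells it had 281, 249 and 277 CPM in DKO libraries, against 155, 164 and 152 CPM in WT libraries. All 5 DKO libraries lay above all 5 WT libraries, and the first stimulated DKO library stood well above the second. The log2 fold changes were 0.85 ± 0.20 in stimulated cells (edgeR adjusted p = 0.0330) and 0.77 ± 0.07 in untreated cells (edgeR adjusted p = 0.00124). In stimulated cells the adjusted p was 0.146 without the first WT library and 0.347 without the unnumbered one, each leaving a single WT library that is assumed to vary like the others.

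Bcl2a1b (ENSMUSG00000089929; chromosome 9, 89081262 to 89089880, plus strand) is 1 of several near-identical A1 genes of the mouse, which act downstream of NF-kB signals. Over 516 coding bases it differs from Bcl2a1d at 6 (98.84% identity) and from Bcl2a1a at 11. It shares runs of up to 217 identical bases with either. Reads from such runs could be split between these genes or left uncounted by the authors' counting, so the level of Bcl2a1b may be too low. The first 60 coding bases of all 3, which hold several of the differences, are given with capitals at positions where they are not all alike.
Bcl2a1a: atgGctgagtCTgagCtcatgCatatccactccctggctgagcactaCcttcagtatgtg
Bcl2a1b: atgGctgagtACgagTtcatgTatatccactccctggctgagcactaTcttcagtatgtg
Bcl2a1d: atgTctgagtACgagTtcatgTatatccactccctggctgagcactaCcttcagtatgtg
Bcl2a1b had 333 and 237 CPM in stimulated DKO libraries, against 185 and 183 CPM in stimulated WT libraries, and 269, 329 and 313 CPM in untreated DKO libraries, against 247, 219 and 230 CPM in untreated WT libraries. The groups did not overlap in either condition. In untreated cells it was higher in DKO (log2 fold change 0.37 ± 0.09, edgeR adjusted p = 0.0231), and in stimulated cells it did not pass (0.58 ± 0.19, edgeR adjusted p = 0.0837). With the counts of Bcl2a1a, Bcl2a1b and Bcl2a1d summed before the fit, a choice made after the data were seen, the values were 0.34 ± 0.09 in untreated (edgeR adjusted p = 0.0289) and 0.59 ± 0.20 in stimulated cells (edgeR adjusted p = 0.0813). Such a sum does not restore reads left uncounted. The untreated call of Bcl2a1b was lost without the third WT (edgeR adjusted p = 0.0876), the second DKO (0.0679) or the third DKO library (0.0815). It was also lost in 1 fit over 10 libraries (0.0706) and with the replicate number as a block. With the additional WT libraries in the WT group the change was -0.022. The stimulated value passed under 5 of 11 alternatives: with DESeq2 (adjusted p = 0.0306), with no filter (0.0338), in 1 fit over 10 libraries (0.0152), and without the first (0.36, 0.0248) or the second DKO library (0.81, 8.26e-06), each leaving a single DKO library.

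Bcl2 and Mcl1 did not pass in either condition. Bcl2 (ENSMUSG00000057329; chromosome 1, 106465908 to 106642004, minus strand), the founding pro-survival gene, had 46.0 and 58.4 CPM in stimulated DKO and 70.3 and 75.1 CPM in stimulated WT libraries, with a log2 fold change of -0.52 ± 0.19 (edgeR adjusted p = 0.104). In untreated cells it had 36.0, 55.9 and 59.2 CPM in DKO and 67.4, 58.6 and 66.1 CPM in WT libraries, with a log2 fold change of -0.36 ± 0.17 (edgeR adjusted p = 0.165). That change was -0.16 without the first DKO library and -1.69 with the additional WT libraries in the WT group (edgeR adjusted p = 0.267 and 0.189). The first untreated DKO library was far below the others, and the one with 59.2 CPM overlapped the lowest WT library. The first untreated DKO library and the second untreated WT library read as female, with 31730 and 34544 Xist counts and at most 1 count of the Y-linked Ddx3y. The other numbered untreated libraries had at most 7 Xist counts. With a term for sex, added after the data were seen, the edgeR adjusted p of Bcl2 in untreated cells was 0.00998. Bcl2 passed there under 2 of 17 alternatives, this one among them. In stimulated cells its change ranged from -0.71 to -0.32 when 1 library was left out. Mcl1 (ENSMUSG00000038612; chromosome 3, 95566099 to 95570487, plus strand), whose protein turns over quickly, had 706 and 700 CPM in stimulated DKO and 759 and 861 CPM in stimulated WT libraries. In untreated cells it had 448, 593 and 524 CPM in DKO and 599, 482 and 594 CPM in WT libraries, its lowest value in each group being that of the female library. Its log2 fold changes were -0.25 ± 0.18 in stimulated and -0.11 ± 0.12 in untreated cells (edgeR adjusted p = 0.396 and 0.567).

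Among the BH3-only members, Bmf was the member with the largest change in either condition. Bmf (ENSMUSG00000040093; chromosome 2, 118359238 to 118380168, minus strand) encodes a protein held at the cytoskeleton through dynein light chain until released. It had 198 and 175 counts in stimulated DKO libraries, against 509 and 447 in stimulated WT libraries, and 60, 89 and 49 counts in untreated DKO libraries, against 267, 216 and 311 in untreated WT libraries. In TMM-scaled CPM these were 10.2 and 10.6 in stimulated DKO, 26.1 and 24.1 in stimulated WT, 3.87, 5.61 and 3.26 in untreated DKO and 13.4, 12.9 and 15.3 in untreated WT cells. Every DKO library lay below every WT library of its condition, and all 5 DKO libraries were also below all 5 WT libraries. The log2 fold changes were -1.31 ± 0.19 in stimulated (edgeR adjusted p = 0.00593) and -1.71 ± 0.21 in untreated cells (edgeR adjusted p = 0.00217). Only 0.745% of all genes tested in untreated cells and 4.10% in stimulated cells had a lower log2 fold change. Each stimulated DKO library held 40.6% and 42.3% of the stimulated WT mean, and the untreated DKO libraries 27.9%, 40.5% and 23.5% of the untreated WT mean.

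Bcl2l11 (ENSMUSG00000027381; chromosome 2, 127967958 to 128004467, plus strand), which encodes BIM, was lower in DKO cells in both conditions. It had 106 and 112 CPM in stimulated DKO libraries, against 192 and 194 CPM in stimulated WT libraries. In untreated cells it had 67.6, 59.1 and 60.1 CPM in DKO libraries, against 92.4, 90.5 and 102 CPM in WT libraries. Libraries of a group lay close together and the groups did not overlap. The log2 fold changes were -0.87 ± 0.17 in stimulated (edgeR adjusted p = 0.0177) and -0.62 ± 0.09 in untreated cells (edgeR adjusted p = 0.00322). With the additional WT libraries in the WT group the untreated call was lost (edgeR adjusted p = 0.0886). In stimulated cells the adjusted p was 0.130 and 0.184 when either WT library was left out.

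Bmf, Bcl2l11 and Bcl2l1 all lie on chromosome 2. Since Bmf and Bcl2l11 were lower together, the 300 bases around their first RefSeq start site (250 before to 50 after, GRCm38.p6) were read and searched on both strands for GTAAACA, known as a FOXO site, for CACGTG (an E-box), for TGANTCA (an AP-1 site) and for the kappaB consensus. The windows are chr2:118549637-118549936 (minus strand) for Bmf and chr2:128125788-128126087 (plus strand) for Bcl2l11, with a motif match in capitals.
Bmf: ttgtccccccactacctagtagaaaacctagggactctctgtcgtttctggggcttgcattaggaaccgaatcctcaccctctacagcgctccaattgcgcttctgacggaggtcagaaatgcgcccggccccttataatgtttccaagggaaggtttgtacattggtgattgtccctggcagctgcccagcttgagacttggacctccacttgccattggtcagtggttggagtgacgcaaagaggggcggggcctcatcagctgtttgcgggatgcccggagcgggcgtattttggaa
Bcl2l11: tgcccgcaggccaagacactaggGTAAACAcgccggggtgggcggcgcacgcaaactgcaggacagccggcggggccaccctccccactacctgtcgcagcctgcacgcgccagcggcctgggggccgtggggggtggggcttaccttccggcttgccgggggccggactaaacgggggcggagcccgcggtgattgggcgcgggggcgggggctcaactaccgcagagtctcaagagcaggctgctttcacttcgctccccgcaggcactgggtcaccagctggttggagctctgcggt
This Bcl2l11 window held 1 GTAAACA and none of the others, and this Bmf window held none of the 4 motifs. RefSeq lists further start sites: 1 of 2 others of Bmf had a kappaB match, and the other one of Bcl2l11 had no match. Over 32851 RefSeq windows of the same length, GTAAACA was present in 3.65%, CACGTG in 7.15%, TGANTCA in 7.81% and the kappaB consensus in 8.46%. A match says only that these letters are there.

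The remaining members, 3 BH3-only genes and the effector, gave 1 call in DKO against WT cells, that of Bak1 in untreated cells. Bid (ENSMUSG00000004446; chromosome 6, 120868891 to 120893814, minus strand), which is cut by caspase-8 and links death receptors to mitochondria, had 196 and 144 CPM in stimulated DKO and 204 and 165 CPM in stimulated WT libraries. In untreated cells it had 157, 172 and 174 CPM in DKO and 159, 172 and 160 CPM in WT libraries. Its groups overlapped in both conditions, with log2 fold changes of -0.17 ± 0.20 and 0.02 ± 0.07 (edgeR adjusted p = 0.602 in stimulated and 0.855 in untreated cells). Bad (ENSMUSG00000024959; chromosome 19, 6919229 to 6929267, plus strand), whose protein is held inactive by growth factor signalling, had 177 and 83 counts in the stimulated DKO and 115 and 170 in the stimulated WT libraries, and 123 to 180 counts in untreated DKO against 185 to 271 in untreated WT libraries. Its log2 fold changes of -0.14 ± 0.33 in stimulated and -0.39 ± 0.16 in untreated cells did not pass (edgeR adjusted p = 0.807 and 0.129). Bik (ENSMUSG00000016758; chromosome 15, 83411063 to 83428835, plus strand) had 5 and 3 counts in stimulated DKO, 1 and 0 in stimulated WT, 2, 1 and 1 in untreated DKO and 1 in each untreated WT library, which is too little for a comparison.

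Bak1 (ENSMUSG00000057789; chromosome 17, 27238784 to 27247983, minus strand), which encodes the pore-former BAK, was lower in untreated DKO cells. It had 67.8, 63.6 and 58.2 CPM in untreated DKO libraries, against 95.5, 77.9 and 83.9 CPM in untreated WT libraries, with a log2 fold change of -0.45 ± 0.10 (edgeR adjusted p = 0.0153). In stimulated cells it had 81.1 and 52.5 CPM in DKO and 78.3 and 66.7 CPM in WT libraries. There the WT values lay between those of the 2 DKO libraries, and the log2 fold change was -0.17 ± 0.21 (edgeR adjusted p = 0.620). The untreated call was lost without the third WT (edgeR adjusted p = 0.0614) or the third DKO library (0.0671) and in 1 fit over 10 libraries (0.0723). It was also lost with the replicate number as a block. With the additional WT libraries in the WT group the log2 fold change was -0.0065 (edgeR adjusted p = 0.994). Bcl2a1b overlaps Gm29094, and Bid overlaps Gm44260, each on the same strand. Gene bodies of Bid, Bad and Bak1 also overlap genes on the other strand, among them Bcl2l13, Gpr137 and Ggnbp1. No source used here gives the strand setting of the counting. In untreated DKO cells Gm29094, Bcl2l13, Gpr137 and Ggnbp1 averaged 14, 1133, 117 and 21.3 counts. In untreated WT cells they averaged 58.3, 1390, 240 and 45 counts. Gm44260 averaged 54.3 counts in untreated DKO and 78.7 in untreated WT libraries.

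Summed by role, transcripts of the 4 pro-survival genes were at 702 and 559 RPKM in stimulated DKO, 497 and 519 in stimulated WT, 526, 636 and 603 in untreated DKO and 519, 452 and 496 in untreated WT libraries. The 5 BH3-only genes together had 74.0 and 58.8 RPKM in stimulated DKO and 88.8 and 78.9 in stimulated WT libraries. In untreated cells they had 57.2, 61.4 and 60.3 RPKM in DKO and 64.1, 66.5 and 66.0 in WT libraries. The ratio of the summed levels was 9.49 to 9.52 in stimulated DKO, against 5.60 to 6.58 in stimulated WT cells, and 9.20 to 10.4 in untreated DKO, against 6.80 to 8.10 in untreated WT cells. The DKO and WT ranges of the ratio did not overlap in either condition. This ratio is a description with no test, since the sum is mostly Bcl2a1b and Mcl1 on one side and Bid on the other, and transcript levels need not follow protein. The sums also leave out other family genes, such as BH3-only Bbc3 and Pmaip1 and pro-survival Bcl2l2, so the ratio is not that of the whole family.

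**Figure D3:**
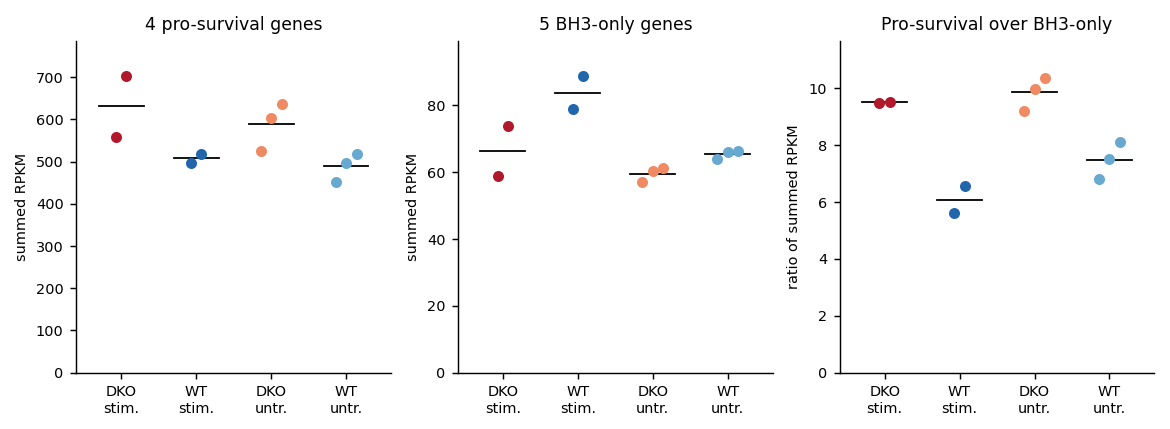
Summed RPKM (vertical axes, from 0) of the 4 pro-survival genes, of the 5 BH3-only genes, and the ratio of these sums, per library of stimulated (stim.) and untreated (untr.) DKO and WT cells, with group means as bars. The ratio lies at 9.20 or more in every DKO library and at 8.10 or less in every WT library.

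Whether the DKO effect differed between stimulated and untreated cells was tested as an interaction in 1 fit over the 10 numbered and unnumbered libraries. None of the 9 members passed, beside 21 of 15006 genes (0.14%; 0.133% with a positive and 0.00666% with a negative term). None had an unadjusted p under 0.05 by edgeR or by DESeq2. The smallest edgeR p was that of Bmf, with a term of 0.43 ± 0.28 (unadjusted p = 0.146, edgeR adjusted p = 0.555), and Bak1, called in untreated cells only, had 0.32 ± 0.24 (edgeR adjusted p = 0.597). The calls that passed in 1 condition only are thus not shown to differ between conditions.

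The second question was what stimulation did to the family in each genotype. In stimulated DKO against untreated DKO cells 3 of 9 members were higher (Mcl1, Bcl2l11 and Bmf), beside 16.2% of 15006 genes, and none lower, beside 16.8%; any direction was called for 33% of all genes. In stimulated WT against untreated WT cells the same 3 members were higher, beside 17.8% of genes, and Bad was lower, beside 22.8%; any direction was called for 40.6%. Values of stimulated and untreated libraries did not overlap for 3 of 9 members in DKO and 6 of 9 in WT cells, beside 54% and 66.9% of all genes. The median log2 fold change of the 9 members was 0.08 in DKO and 0.17 in WT cells, against -0.01 and -0.02 over all genes.

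Bmf changed by 1.29 ± 0.21 on the log2 scale in DKO (edgeR adjusted p = 0.000485) and by 0.85 ± 0.19 in WT cells (edgeR adjusted p = 0.00305). Bcl2l11 changed by 0.81 ± 0.11 in DKO (edgeR adjusted p = 0.000112) and 1.02 ± 0.10 in WT cells (edgeR adjusted p = 1.38e-05). Both pro-death transcripts were thus higher after stimulation in both genotypes; in stimulated DKO cells Bcl2l11 (106 and 112 CPM) was above, and Bmf (10.2 and 10.6 CPM) below, every untreated WT library. Mcl1 changed by 0.43 ± 0.14 in DKO (edgeR adjusted p = 0.0324) and 0.54 ± 0.14 in WT cells (edgeR adjusted p = 0.00860), and the DKO call was lost without either stimulated DKO library (adjusted p = 0.0682 and 0.0673), the first or the third untreated DKO library (0.111 and 0.0760), the first stimulated WT library (0.0532) or the third untreated WT library (0.0542). Bad was at -0.43 ± 0.27 in DKO (edgeR adjusted p = 0.235) and fell by 0.73 ± 0.26 in WT cells (edgeR adjusted p = 0.0427), a call that was lost without the first stimulated WT library (adjusted p = 0.335) or the first or the third untreated WT library (0.103 and 0.117). Bcl2l1, known as an induced gene, was at 0.27 ± 0.14 in DKO and 0.15 ± 0.14 in WT cells, and Bcl2a1b at -0.09 ± 0.15 and -0.33 ± 0.15, none of which passed. Bcl2, Bid and Bak1 lay between -0.24 and 0.18 in both genotypes and did not pass. Stimulation came with culture and with a separate table, which cannot be told apart from it.

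**Figure D4:**
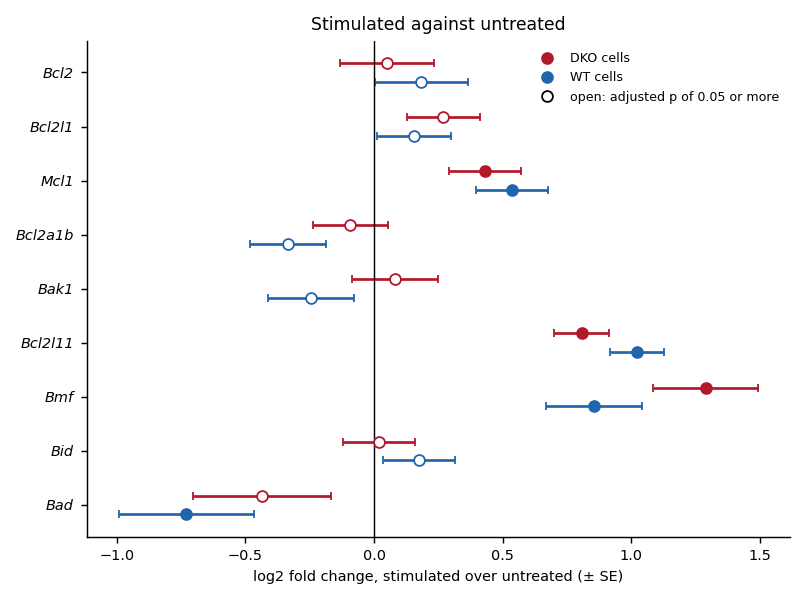
Log2 fold change, stimulated over untreated, of the 9 tested members (horizontal axis, bars are SE) in DKO and WT cells; filled points have an edgeR adjusted p under 0.05. Mcl1, Bcl2l11 and Bmf lie right of 0 with filled points in both genotypes, and Bad is filled left of 0 in WT cells at -0.73.

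The rest of the pathway was described with 60 genes in 6 lists (other BCL2 homologues, mitochondrial factors, caspases, death receptors, inhibitors of apoptosis and regulators of the members). In DKO against WT cells, 4 of 54 tested genes were higher and 3 lower in stimulated cells, and 3 were higher and 4 lower in untreated cells, 7 called in each condition beside the 11.3% and 19.5% of all genes given above. Bcl2l2, which encodes the pro-survival protein BCL-W, was lower in both (-0.99 ± 0.20 stimulated, edgeR adjusted p = 0.0196; -0.88 ± 0.14 untreated, edgeR adjusted p = 0.00538), with 9.56 ± 0.0463 CPM in stimulated DKO, 18.4 ± 2.52 in stimulated WT, 14.1 ± 2.59 in untreated DKO and 25.8 ± 1.42 in untreated WT cells. Bax, the second effector, was higher in stimulated DKO cells, at 69.3 and 43.2 CPM in DKO against 29.9 and 29.7 in WT libraries (0.86 ± 0.21, edgeR adjusted p = 0.0358), and did not pass in untreated cells (0.04 ± 0.09). Its interaction term of 0.86 ± 0.24 did not pass (edgeR adjusted p = 0.215). In the death receptor list Tnfrsf10b, a TRAIL receptor, was higher (1.02 ± 0.20 stimulated and 0.56 ± 0.13 untreated) and Fadd, the adaptor that recruits caspase-8, lower (-0.84 ± 0.23 and -0.60 ± 0.14), all with edgeR adjusted p from 0.0160 to 0.0458.

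Casp6 was lower in untreated DKO cells (-0.87 ± 0.19, edgeR adjusted p = 0.0153). Cycs, the cytochrome c gene, was higher (0.83 ± 0.19, edgeR adjusted p = 0.0287) and Xiap, a caspase inhibitor, lower (-0.84 ± 0.21, edgeR adjusted p = 0.0378) in stimulated DKO cells. Bcl2a1d was higher in untreated DKO cells (0.31 ± 0.09, edgeR adjusted p = 0.0384), as was Nfkb2, an NF-kB subunit (0.25 ± 0.06, edgeR adjusted p = 0.0250). No gene of the lists passed the interaction, of 55 tested.

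With stimulation, 10 of these 55 genes were higher and 12 lower in DKO cells, beside 16.2% and 16.8% of all genes, and 10 were higher and 16 lower in WT cells, beside 17.8% and 22.8%. Lower in both were Bbc3, which encodes the BH3-only protein PUMA (-1.12 ± 0.27 in DKO, -2.68 ± 0.30 in WT), Bax (-0.79 ± 0.17 and -1.65 ± 0.18), Bcl2l14 (-3.81 ± 0.49 and -1.85 ± 0.41), Diablo (-0.68 ± 0.14 and -0.57 ± 0.14), Htra2 (-0.44 ± 0.13 and -0.51 ± 0.13), Pim1, a kinase that phosphorylates BAD (-0.74 ± 0.27 and -1.51 ± 0.27), and Cflar, which blocks caspase-8 (-1.12 ± 0.17 and -0.82 ± 0.17). The dynein light chain genes Dynll1 and Dynll2, whose products hold BMF and BIM, were lower too (-0.73 ± 0.17 and -0.85 ± 0.11 in DKO, -0.81 ± 0.17 and -0.92 ± 0.11 in WT). Higher in both were Cycs (2.33 ± 0.24 and 1.50 ± 0.24), Birc5, the gene of the dividing-cell protein survivin (1.70 ± 0.28 and 1.07 ± 0.28), Birc2 (0.74 ± 0.16 and 0.79 ± 0.16), Fas (0.67 ± 0.18 and 0.82 ± 0.18) and Casp8 (0.58 ± 0.14 and 0.40 ± 0.14). Named after their values were seen, Pmaip1, which encodes the BH3-only protein NOXA (0.43 ± 0.13 and 0.46 ± 0.12), and Rel (0.46 ± 0.16 and 0.51 ± 0.16) were also higher in both, and Bcl2l2 (-0.56 ± 0.17 and -0.48 ± 0.16) and Bcl2a1a (-0.95 ± 0.29 and -1.003 ± 0.29) lower in both. Tnfrsf10b (0.62 ± 0.15) and Ywhaz, whose product belongs to the protein family that holds BAD (0.35 ± 0.11), passed in DKO cells as higher. In WT cells Casp2 (0.54 ± 0.10) and Xiap (0.62 ± 0.13) passed as higher and Vdac2 (-0.53 ± 0.12) as lower. Each of these had an edgeR adjusted p of at most 0.0490, and none of them passed the interaction of genotype and stimulation.

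The 2 additional WT libraries of untreated cells differed from the numbered WT libraries across the family. They are set side by side as CPM of the plain library total, with no test, since they come from another table whose coordinates are of an older genome build. Bcl2 had 341 and 287 CPM in the additional libraries and 69.9, 60.1 and 69.6 CPM in the numbered WT libraries, a 4.71-fold higher mean. Bcl2l11 (184 to 189 against 92.9 to 107 CPM), Bcl2a1b (401 to 452 against 225 to 256), Mcl1 (875 to 892 against 495 to 625), Bmf (18.7 to 21.7 against 13.2 to 16.1) and Bcl2l1 (183 to 195 against 160 to 168) were also above the numbered libraries. Bak1 (26.2 to 32.6 against 80.0 to 98.9 CPM), Bid (79.3 to 97.9 against 165 to 176) and Bad (8.15 to 10.4 against 11.3 to 14.0) were below them. The additional libraries were thus outside the numbered WT range for all 9 members with more than a few counts. The share of all genes outside that range was not computed, so this is not shown to be particular to the family. Their summed markers of monocytes, macrophages and granulocytes were at 194 to 242 CPM, against 66.3 to 75.3 CPM in numbered WT libraries, of which Adgre1 gave 2590 and 3577 counts, against 597 to 929, while Itgam had 6 counts in each, against 1 to 11, and Csf1r 17 and 22, against 16 to 57. The part of this in the difference was not tested.

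**Figure D5:**
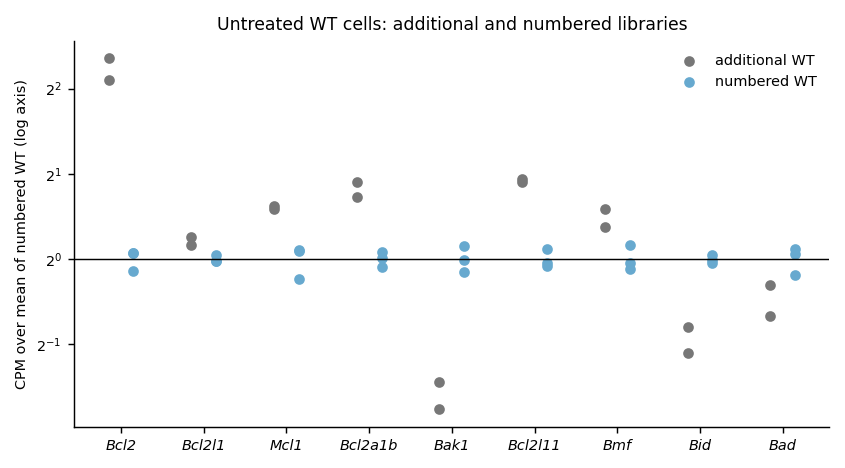
CPM of the plain total of each member in the 2 additional and 3 numbered WT libraries of untreated cells, divided by the mean of the numbered libraries (log axis). Bcl2 stands apart at about 4.71 times the numbered mean, and Bak1, Bid and Bad lie below 1.

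Genes most like 3 members across the 10 libraries were ranked by the Pearson correlation of log2 CPM among 12059 genes. Libraries of 4 groups enter it, so r mainly follows the differences between groups, and it is given as a description. Bmf was most like Fry (0.988), Ccdc28b (0.986) and Ak3 (0.986). Bcl2l11 was most like Trim36 (0.988), Slc44a2 (0.982) and Cmah (0.980), and Bcl2l1 most like Pabpc1 (0.979), Nsa2 (0.971) and Dctn4 (0.967). Within the family Bmf and Bcl2l11 had an r of 0.907 over these libraries, and Bmf and Bcl2a1b one of -0.80.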

How the data were processed

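The values are raw counts per gene that the authors deposited in 3 tables covering 12 libraries; 12 FPKM columns were not used. Exon lengths of the same tables, another value that the authors deposited, gave RPKM. Per the submitters' processing notes, FastQC 0.10.1, cutadapt 1.9.1, HISAT2 2.2.1, HTSeq 0.6.1 and the build GRCm39 were used; no source used here gives the strand setting or annotation release. The members, lists and rules were chosen with earlier results of these data known.

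Tests used edgeR 4.0.16 under R 4.3.3 on raw counts (two-sided quasi-likelihood test, TMM, filterByExpr with minimum count 10 and minimum total 15) and Benjamini-Hochberg adjustment over all genes. Stimulated and untreated cells were fitted separately for DKO against WT, and 10 libraries jointly otherwise (55349 shared genes). CPM and RPKM use the joint TMM factors (0.896 to 1.06), except marker sums, targeted genes and additional WT libraries (plain totals). Each SE is the log2 fold change without its sign, divided by the root of the F statistic. All members were named, and of each pathway list up to 3 called genes with the smallest p; a few list genes are not reported here by name. Alternatives were RLE scaling, DESeq2 1.42.0, no or a stricter filter, leaving out each library, immunoglobulin genes left out, a minimum log2 change of 1, 1 joint fit, a replicate block, and the additional libraries counted as WT. For DKO against WT in untreated cells, libraries with Xist counts were also left out, and a term for sex was added after the data were seen. The steps were tested on simulated data. BH3 and A1 sequences come from GENCODE transcripts on GRCm38, promoters from RefSeq (9 of 10 members matched). Precision is limited by 2 or 3 libraries a group.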

Additional observations from a re-analysis of the deposited data

How the results depend on the processing

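Bmf was called lower in DKO cells under every alternative run in both conditions, and Bcl2l1 in untreated cells under all but the minimum log2 fold change of 1. With that minimum the number of members called was 1 for each of DKO against WT in stimulated and untreated cells and stimulated against untreated DKO and WT cells. In untreated cells (5 called) it was 3 with 1 fit over 10 libraries, 2 with the additional libraries in the WT group, and 3 to 5 when 1 library was left out. Over all 17 alternatives for untreated cells it ranged from 1 to 6. In stimulated cells (3 called) leaving out 1 library gave 1 to 6, with 6 and 5 without the first and the second DKO library and 1 without either WT library. For stimulated against untreated WT cells (4 called) the additional libraries gave 0. The interaction called none under any alternative run. Same-numbered untreated DKO and WT libraries did not deviate together (correlations -0.353, -0.351 and 0.139), so the numbers do not pair them; with the replicate number as a block 3 members were called in untreated cells. In DKO cells (correlations -0.056 and -0.184) the replicate block called 2 and gave Bak1 -0.038. No block could be fitted for stimulated DKO against WT cells, which share 1 number only.

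Values that changed sign did so for members not past the threshold, except Bcl2a1b in untreated cells (-0.022 with the additional libraries in the WT group). With those libraries the interaction terms were 1.17 for Bcl2, 0.15 for Mcl1, 0.21 for Bcl2l11 and -0.16 for Bak1, and stimulated against untreated WT gave -1.13 for Bcl2 and 0.22 for Bak1. Leaving out 1 library, the DKO against WT change ranged from -0.0013 to 0.073 for Bid in untreated cells, and in stimulated cells from -0.36 to 0.038 for Bid, -0.58 to 0.23 for Bad and -0.47 to 0.12 for Bak1. Interaction terms ranged from -0.32 to 0.041 (Bcl2), -0.15 to 0.35 (Bcl2l1), -0.23 to 0.011 (Mcl1), -0.013 to 0.47 (Bcl2a1b), -0.38 to 0.052 (Bid), -0.19 to 0.66 (Bad) and -0.014 to 0.61 (Bak1). Stimulated against untreated DKO values ranged from -0.14 to 0.22 (Bcl2), -0.0012 to 0.50 (Bcl2l1), -0.35 to 0.13 (Bcl2a1b), -0.21 to 0.22 (Bid) and -0.26 to 0.36 (Bak1). The cause was not tested. Over all genes, untreated calls numbered 2638, against 786 with the block and 319 with the additional libraries. Bik, with at most 5 counts, is limited by depth.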

Other observations

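Among untreated DKO libraries, Hnrnpa1 transcript was most abundant in number 2, at 199 CPM of the plain total, against 76.7 CPM in the lowest DKO library and 718 to 741 CPM in WT. Hnrnpa2b1 was also highest in number 2, at 619 CPM, against 335 CPM in the lowest DKO library and 1782 to 2020 CPM in WT. In that library Bmf was at 40.5% of the WT mean, against 27.9% and 23.5% in numbers 1 and 3, and Bcl2l1 at 159%, against 180% and 177%, so that both were closest to WT there. Bcl2l11 was not, at 62.2% against 71.2% and 63.3%, nor was Bcl2a1b, at 142% against 116% and 135%. Bak1 was not either, at 74.2% against 79.1% and 67.9%. These are single libraries, and no test was made.

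UAGGG is the element best known for binding hnRNP A1 (UAGGG is written TAGGG in the transcript sequences). Principal transcripts of the members held 0 (Bid) to 4 (Mcl1) copies, with 1 in Bmf, 3 in Bcl2l11 and 1 in Bcl2l1. Per kilobase these were 0.215, 0.596 and 0.389, against a median of 0.316 over 21877 genes, of which 60.6% held any. Bak1 had 1.257 and Bcl2a1b 1.224 per kilobase, above 94% and 93.6% of these transcripts. Members without a call in DKO against WT cells reached such values too. Mcl1 had 1.17 per kilobase, and Bik, which was not tested, had 2.247, above 92.7% and 99.3% of transcripts. A match is a description of letters and says nothing of binding.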
